A study of Rattus norvegicus with 9 samples.

Results

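Ces1d, Cyp2e1, Obp3 and Gdpd2 are 4 genes that stood higher in pulmonary than in mesenteric artery of the rat in RNA sequencing counts. They were taken by symbol from the 30452 features counted in each of 9 libraries, and each symbol stood on 1 line. The pulmonary against mesenteric difference is what they were chosen for, so their values in that direction are given as a description, with no test. The question here is how far the difference held in each pulmonary library.

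Pulmonary artery of control offspring is called PAC (replicates 1, 2 and 4). Mesenteric artery is called MAH where the dams drank sucrose water and MAC in controls (replicates 1, 2 and 3 each). The rats were 3 to 5 months old, and all their dams ate standard diet in pregnancy, with 20% sucrose water for MAH and ordinary water for PAC and MAC. Arteries were dissected under a microscope, and poly(A) RNA was sequenced from them. The labels name no strain or sex and do not say that replicates were separate rats, so the spread between samples may be technical.

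Ces1d is a carboxylesterase, a serine hydrolase of the endoplasmic reticulum that in the mouse hydrolyses stored triacylglycerol in liver and fat. Cyp2e1 is the ethanol-inducible cytochrome P450, which oxidises ethanol, acetone and other small molecules with electrons from the reductase Por and from cytochrome b5. Obp3 is a secreted lipocalin of the rat alpha-2u-globulin and major urinary protein group, small barrel-shaped carriers of lipophilic ligands. Gdpd2, also called GDE3, is a membrane glycerophosphodiester phosphodiesterase, studied in the mouse in bone-forming cells. Ces1d and Cyp2e1 are known for high levels in liver and also occur in adipocytes. Arteries carry perivascular fat on their outer side, and a pulmonary artery borders on heart, lung, pleura and lymph nodes.

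The promoter bases of the 3 genes that were highest in PAC replicates 1 and 2 are shown to set their core elements beside each other. They are RefSeq sequences of build GRCr8. They hold the 150 bases before the annotated start of Ces1d (chr19:30046344-30046493, plus strand) and of Cyp2e1 (chr1:205269817-205269966, plus strand). For Obp3 they hold the 30 bases from 45 to 16 before the start used in the table (chr5:79640691-79640720, minus strand). Capitals mark TATAAA and CCAAT on either strand (CCAAT on the opposite strand reads ATTGG).
Ces1d: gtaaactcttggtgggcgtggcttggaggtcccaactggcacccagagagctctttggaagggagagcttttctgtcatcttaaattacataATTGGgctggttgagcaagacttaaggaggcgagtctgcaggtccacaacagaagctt
Cyp2e1: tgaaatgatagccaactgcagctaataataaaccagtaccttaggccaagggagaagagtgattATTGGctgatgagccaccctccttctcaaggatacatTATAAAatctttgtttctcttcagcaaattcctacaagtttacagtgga
Obp3: acccagagagagTATAAAgacgagcaaagt

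TATAAA stood 49 to 44 bases before the start of Cyp2e1 and 33 to 28 bases before that of Obp3, and it was in 8% of the 33469 promoters of the table over the same 150 bases. CCAAT stood on the opposite strand, 58 to 54 bases before the start of Ces1d and 86 to 82 bases before that of Cyp2e1; 23.5% of the promoters held it. AGGTCA (8.76% of promoters) and GTTAAT (3.74%), also searched on both strands, were in none of the 4 windows, and the window of Gdpd2 held none of the 4 motifs. A match describes letters in this window and is not a site, and the files were counted on another build, rn7, so no position of a read is given. The starts used for Obp3 and Gdpd2 differ from the gene boundaries that RefSeq also lists. Distances and windows of these genes are therefore uncertain.

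Total counts ran from 10388231 to 15420546 per library. A count of 3, the limit that a count of 0 allows, corresponded to 0.194 to 0.286 CPM, the usual scaling of a count by the TMM-adjusted total of its library. The 3 pulmonary libraries differed widely in markers of neighbouring tissues. Summed cardiac muscle markers came to 1083, 22553 and 1925 CPM in PAC replicates 1, 2 and 4, against 33.6 to 110 CPM in the mesenteric libraries. Lung and airway epithelium markers came to 10.1, 76.6 and 850 CPM in PAC against 9.29 to 25 CPM, and lymphocyte markers to 35.8, 20.3 and 2108 CPM against 15.3 to 45.1 CPM. Smooth muscle markers reached 20855, 22340 and 3399 CPM in PAC and 10227 to 41817 CPM in mesenteric libraries, so that PAC replicate 4 was the lowest of the 9. Mitochondrially encoded genes took 27.1% of the counts in PAC replicate 4, the highest share, against 12.8% to 20.1% in the other libraries. Markers of each list were at their highest in PAC replicate 2 for 10 of 10 cardiac genes, and in PAC replicate 4 for 9 of 9 epithelial and 10 of 10 lymphocyte genes. In whole arteries, fewer cells of a type and less RNA per cell cannot be told apart.

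Of the 4 genes, 3 (Ces1d, Obp3 and Gdpd2) had every PAC library above all 6 mesenteric libraries. This was so for 3.28% of the 14315 genes tested between PAC and MAC, a figure beside which nothing is read, since the genes were chosen on this contrast. Against MAC alone and MAH alone the count was also 3 of 4, where 6.41% and 6.54% of the genes tested had all PAC libraries on top. Cyp2e1 was the exception in all of these counts. Without PAC replicate 4, or with PAC replicate 1 alone, all 4 genes stood above the mesenteric libraries.

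Ces1d, the carboxylesterase, was counted 2653, 2727 and 666 times in PAC replicates 1, 2 and 4, that is 220, 195 and 43.0 CPM. In MAH replicates 1, 2 and 3 it had 21, 47 and 38 counts (1.62, 4.46 and 3.63 CPM), and in MAC replicates 1, 2 and 3 it had 77, 72 and 38 counts (5.18, 6.20 and 3.55 CPM). The lowest pulmonary library thus stood 6.94-fold above the highest mesenteric one, and the other two 31.5-fold and 35.5-fold. PAC averaged 153 ± 95.8 CPM, against 3.24 ± 1.46 CPM in MAH and 4.98 ± 1.34 CPM in MAC (SD, n = 3 each), and the MAH and MAC values overlapped. The log2 fold change was 5.55 (SE 0.76) for PAC over MAH and 4.92 (SE 0.68) for PAC over MAC. In the comparison with MAC this was the 77th largest positive value among the genes tested. Within PAC, replicate 1 held 5.11 times the level of replicate 4.

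Obp3, the secreted lipocalin, followed the same order of libraries in PAC with a wider spread. Its counts were 3880, 2544 and 252 in PAC replicates 1, 2 and 4 (321, 182 and 16.3 CPM). They were 42, 74 and 47 in MAH (3.24, 7.02 and 4.49 CPM) and 172, 129 and 60 in MAC (11.6, 11.1 and 5.60 CPM). PAC replicate 4 was only 1.40-fold above the highest mesenteric library, MAC replicate 1, while replicates 1 and 2 were 27.8-fold and 15.7-fold above it. Counting intervals (exact Poisson, 95%) were 14.3 to 18.4 CPM in PAC replicate 4 and 9.91 to 13.4 CPM in MAC replicate 1. They hold counting error only and not the spread between libraries, which was 5.60 to 11.6 CPM within MAC. Nothing is read from them on the difference between the arteries. Means were 173 ± 153 CPM in PAC, 4.92 ± 1.93 CPM in MAH and 9.43 ± 3.32 CPM in MAC (SD, n = 3 each). The log2 fold change was 5.12 (SE 1.06) for PAC over MAH and 4.19 (SE 1.02) for PAC over MAC, the 129th largest positive value among the genes tested. Without PAC replicate 1 the ratio of the means of PAC and MAC was 10.5, against 18.4 with all libraries. RefSeq lists other genes of the major urinary protein group next to Obp3 on chromosome 5. Reads shared with such copies are not separable here, so the identity of the Obp3 counts is uncertain; Mup4 itself had 0 to 7 counts in any library.

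Cyp2e1, the P450, was well above the mesenteric controls in only 2 of the 3 pulmonary libraries. It was counted 150 and 262 times in PAC replicates 1 and 2 (12.4 and 18.8 CPM) and 3 times in PAC replicate 4 (0.194 CPM, interval 0.0399 to 0.566 CPM). One mesenteric library stood apart from the other 5, which lay between 0.0934 and 0.258 CPM. MAH had 2, 58 and 1 counts in replicates 1, 2 and 3 (0.154, 5.50 and 0.0955 CPM), and MAC had 2, 3 and 1 counts (0.135, 0.258 and 0.0934 CPM). PAC replicate 4 therefore lay among 5 of the 6 mesenteric libraries, at 3 counts or fewer each, and MAH replicate 2 lay between them and the high pulmonary pair. PAC replicates 1 and 2 were 2.26-fold and 3.41-fold above MAH replicate 2. The means were 10.5 ± 9.44 CPM in PAC, 1.92 ± 3.11 CPM in MAH and 0.162 ± 0.0857 CPM in MAC (SD, n = 3 each). In PAC and in MAH the SD was close to the mean or above it. Cyp2e1 did not pass the filter on low counts between PAC and MAC. The ratio of the means was 64.5 there and ran from 38.9 to 96.2 with 1 library left out. Between PAC and MAH the log2 fold change was 2.42 (SE 1.76), and without MAH replicate 2 it was 6.25; the ratio of means was 5.45 with that library and 83.8 without it.

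Gdpd2, the glycerophosphodiesterase, was low everywhere and had another order in PAC. It was counted 56, 36 and 84 times in PAC replicates 1, 2 and 4 (4.64, 2.58 and 5.42 CPM), 4, 2 and 0 times in MAH (0.308, 0.190 and 0 CPM) and 2, 1 and 1 times in MAC (0.135, 0.0861 and 0.0934 CPM). It was the only one of the 4 that was highest in PAC replicate 4, where it stood 2.10-fold above replicate 2. The pulmonary libraries lay 15-fold, 8.36-fold and 17.6-fold above the highest mesenteric library. Means were 4.21 ± 1.47 CPM in PAC, 0.166 ± 0.156 CPM in MAH and 0.105 ± 0.0262 CPM in MAC (SD, n = 3 each), with 176 counts in PAC against 6 in MAH and 4 in MAC. The log2 fold change was 4.55 (SE 0.86) for PAC over MAH and 5.20 (SE 0.61) for PAC over MAC, the 71st largest positive value among the genes tested. With so few mesenteric counts, Gdpd2 passed the filter on low counts through PAC alone. PAC over MAH shares its pulmonary libraries with PAC over MAC and also differs in the dams' drinking water. It rests on 6 counts of Gdpd2 in MAH: the ratio of the means was 25.4 with all libraries, 44.4 without MAH replicate 1 and 16.9 without MAH replicate 3.

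**Figure D1:**
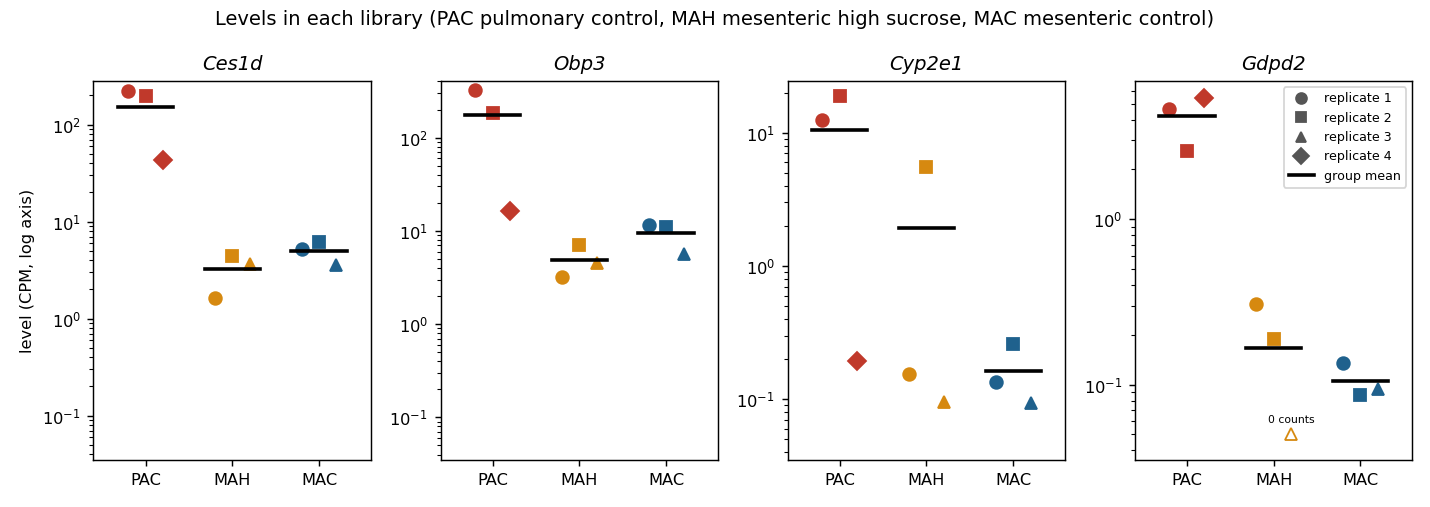
Level of each gene in each library, in CPM on a log axis, for pulmonary control (PAC), mesenteric high-sucrose (MAH) and mesenteric control (MAC) artery; points are libraries, shaped by replicate number, and black lines are group means (n = 3). Ces1d, Obp3 and Gdpd2 have all PAC points above all mesenteric points, while Cyp2e1 in PAC replicate 4 (0.194 CPM) lies among the mesenteric points and MAH replicate 2 (5.50 CPM) lies apart from the other mesenteric points; the open triangle is a library with 0 counts of Gdpd2.

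Prenatal sucrose is the comparison that the choice of genes did not use. None of the 4 genes separated MAH from MAC: 0 of 4 had all MAH libraries below or all above the MAC libraries, where 3.33% and 2.66% of the 13995 genes tested did. Ces1d and Obp3, which passed the filter on low counts, were lower on average in MAH but missed the threshold. Their log2 fold changes for MAH over MAC were −0.62 (SE 0.46) and −0.93 (SE 0.42) by the quasi-likelihood test of edgeR, each with a Benjamini-Hochberg adjusted p of 1.00 over the whole table. By edgeR 0 genes (0%) passed an adjusted p of 0.05 in all, 279 (1.99%) had an unadjusted p under 0.05, and DESeq2 called 3 (0.0214%). The other two did not pass the filter: Cyp2e1 had 61 counts in MAH, 58 of them in replicate 2, against 6 in MAC, and Gdpd2 had 6 against 4. Exact permutation tests of the CPM, two-sided over 20 splits with n = 3 each, gave p = 0.3 for Ces1d, 0.2 for Obp3, 0.6 for Cyp2e1 and 0.6 for Gdpd2. The smallest p such a test can give is 0.1.

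The levels were then set beside markers of adipocytes, since Ces1d and Cyp2e1 occur in fat. The 10 white adipocyte markers summed to 1242, 1967 and 261 CPM in PAC replicates 1, 2 and 4, against 1093, 2599 and 1994 CPM in MAH and 974, 1613 and 1254 CPM in MAC. Their part in the differences was not tested, but the order of the sums can be compared. Ces1d, Obp3 and Cyp2e1 were lowest of the PAC libraries in replicate 4, as the sum was. Other sums were lowest there too. Adventitial fibroblast markers came to 7601, 6448 and 1513 CPM in PAC replicates 1, 2 and 4, the order of Ces1d and Obp3, against 5665 to 13454 CPM in the mesenteric libraries. Blood endothelium markers came to 1641, 2029 and 665 CPM in PAC, against 1355 to 3696 CPM, and smooth muscle markers were also lowest in replicate 4. Adipoq, the adipocyte hormone adiponectin, was at 203, 152 and 6.58 CPM in PAC, against 109 to 262 CPM in the mesenteric libraries. Plin1 of the same list was highest in replicate 2, at 135, 165 and 1.61 CPM in PAC. The mesenteric libraries held 40.7 to 150 CPM of it. MAH replicate 2, which held 58 counts of Cyp2e1, had the highest sum of the 9 libraries and the highest level of 6 of the 10 markers. It also led the mesenteric libraries in brown adipocyte (81.5 CPM), hepatocyte (10.8 CPM), cardiac muscle (110 CPM) and cartilage and bone markers (29.1 CPM). In the other lists a different mesenteric library was highest. The part of any of these in the level of Cyp2e1 was not tested.

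Per 1000 CPM of white adipocyte markers, Ces1d came to 177, 99.3 and 165 CPM in PAC replicates 1, 2 and 4. This was 1.48 to 1.82 CPM in MAH and 2.83 to 5.32 CPM in MAC. PAC replicate 4, the lowest in CPM, thus stood level with replicate 1 on this scale. Obp3 came to 259, 92.6 and 62.3 CPM in PAC, against 2.25 to 2.96 CPM in MAH and 4.47 to 11.9 CPM in MAC. Both genes lay above every mesenteric library in all 3 PAC libraries on this scale. The choice of the genes and the divisor made this likely beforehand. No PAC library exceeded the highest mesenteric sum of these markers, and PAC replicate 4 had the lowest sum. It is given as a description. Cyp2e1 came to 10, 9.54 and 0.742 CPM in PAC replicates 1, 2 and 4. It was 0.141, 2.12 and 0.0479 CPM in MAH and 0.0745 to 0.160 CPM in MAC, so that PAC replicate 4 was again below MAH replicate 2. With Adipoq alone as the divisor this turned round: Cyp2e1 came to 61.2, 123 and 29.4 CPM per 1000 CPM of Adipoq in PAC, against 1.42, 21.0 and 0.397 CPM in MAH and 0.449 to 1.24 CPM in MAC. All 3 PAC libraries were then above all mesenteric ones, the third on 3 counts of Cyp2e1 and 102 of Adipoq. Gdpd2 came to 3.73, 1.31 and 20.8 CPM in PAC, against 0 to 0.282 CPM in the mesenteric libraries, which widened its spread within PAC.

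Between the mesenteric groups, Ces1d averaged 1.67 ± 0.173 CPM per 1000 CPM of white adipocyte markers in MAH and 4.00 ± 1.25 CPM in MAC (SD, n = 3 each). Obp3 averaged 2.64 ± 0.360 CPM in MAH and 7.74 ± 3.78 CPM in MAC on the same scale. For both genes all MAH libraries lay below all MAC libraries, as did 4.56% of the genes tested (3.33% without a divisor), and no test was run on the ratios. With Adipoq alone as the divisor this held for Ces1d (0.629% of the genes tested) but not for Obp3, and with the brown adipocyte markers it held for neither (2.05%). Of 9 white adipocyte markers tested, 8 were higher in MAH than in MAC, with a median log2 fold change of 0.54. Dividing by their sum thus lowers MAH against MAC. Undivided, the MAH and MAC values of both genes overlapped, so no effect of prenatal sucrose is read from the ratios.

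**Figure D2:**
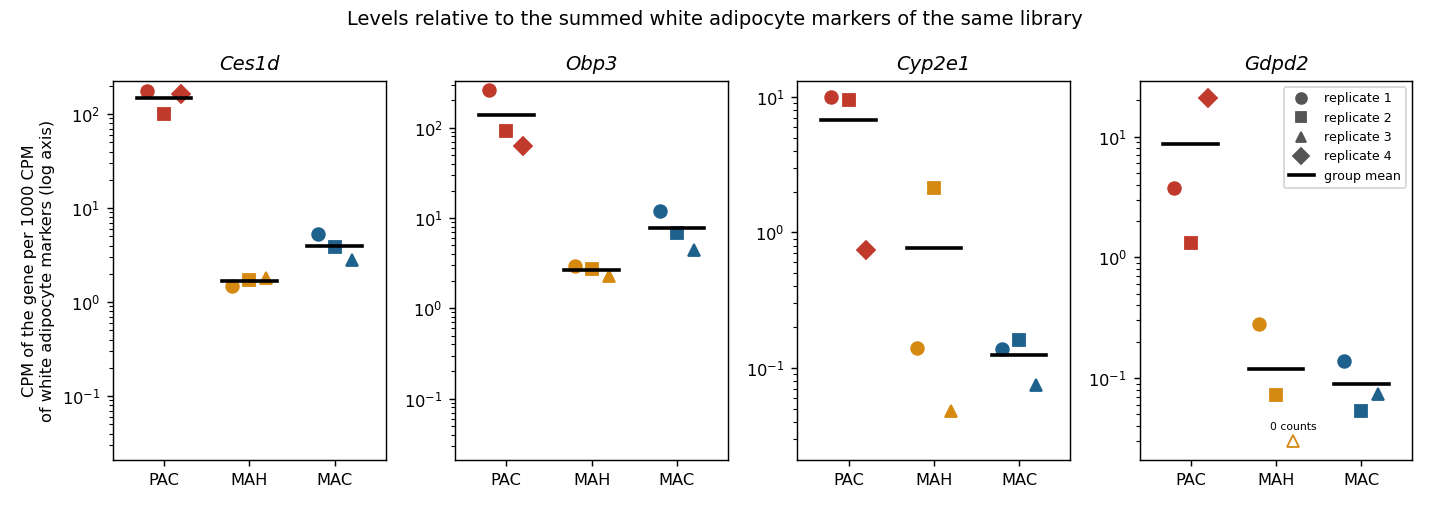
Level of each gene divided by the summed level of 10 white adipocyte markers in the same library, as CPM per 1000 CPM on a log axis, with the groups, replicate shapes and mean lines of the plot of levels. The 3 PAC libraries lie between 99.3 and 177 for Ces1d and between 62.3 and 259 for Obp3, above all mesenteric libraries, while for Cyp2e1 PAC replicate 4 (0.742) lies below MAH replicate 2 (2.12).

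Brown adipocyte markers summed to 136, 356 and 42.9 CPM in PAC replicates 1, 2 and 4, against 32.5 to 81.5 CPM in the mesenteric libraries; 3 of the 8 (Cox7a1, Cpt1b and Ppargc1a) are also genes of heart muscle, whose markers were highest in replicate 2. The defining gene Ucp1, the uncoupling protein of brown fat, was at 12.6, 4.08 and 0.452 CPM in PAC, with 152, 57 and 7 counts. It was at 0 to 0.191 CPM in the mesenteric libraries, at most 2 counts each. Ucp1 had the order of Obp3 and Ces1d among the PAC libraries, but its level in the mesenteric libraries was at or under the limit that a count of 0 allows. Cidea, the next marker of this list, was highest in replicate 2 as the sum was, at 80.8, 117 and 16.8 CPM in PAC. The mesenteric libraries held 19.6 to 41.6 CPM of it. Per 1000 CPM of brown adipocyte markers, all 3 PAC libraries stood above the mesenteric ones for Ces1d (549 to 1611 CPM, against 31.5 to 190 CPM) and for Obp3 (380 to 2356 CPM, against 63.1 to 341 CPM). For Cyp2e1 only 1 of the 3 did.

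Liver markers were looked at because Ces1d and Cyp2e1 are abundant in hepatocytes. Of 9 hepatocyte markers found, 3 to 5 were at 0 counts in a PAC library and 4 to 6 in a mesenteric one. The 9 markers summed to 26.5, 13.6 and 2.07 CPM in PAC replicates 1, 2 and 4, the order of Ces1d and Obp3. Their sum was 4.97 to 10.8 CPM in the mesenteric libraries, highest in MAH replicate 2, and their part in the differences was not tested. Alb, serum albumin, was at 25.3, 9.81 and 0.0645 CPM in PAC replicates 1, 2 and 4, against 3.01 to 9.40 CPM in the mesenteric libraries. Apoa1, the main protein of high-density lipoprotein, was at 0.645 to 0.745 CPM in PAC and 0.280 to 2.24 CPM in the mesenteric libraries. Albumin, with 306, 137 and 1 counts in PAC replicates 1, 2 and 4, had the order of Ces1d and Obp3, and Apoa1 did not. What this means for Ces1d and Obp3 was not tested.

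For Gdpd2, the sums of 2 lists had the same order among the PAC libraries, highest in replicate 4 and lowest in replicate 2. These were the lymphocyte markers (35.8, 20.3 and 2108 CPM in PAC replicates 1, 2 and 4) and those of mesothelium, the cell layer of pleura and pericardium. The mesothelial sum over 6 markers was 96.3, 20.3 and 151 CPM in PAC replicates 1, 2 and 4, against 1.88 to 6.97 CPM in the mesenteric libraries. Msln, mesothelin, was at 50.7, 9.17 and 137 CPM in PAC and at 0 to 0.573 CPM in the mesenteric libraries. It made up most of the sum in PAC replicate 4: of the 6 markers, 4 were highest in PAC replicate 1 and 1 in PAC replicate 4. Upk3b, another mesothelial gene, was at 16.5, 3.72 and 3.81 CPM in PAC, with 1 count in MAH replicate 1 and 0 in the other mesenteric libraries. PAC replicate 4 also led the epithelial list, and the part of these markers in the level of Gdpd2 was not tested.

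**Figure D3:**
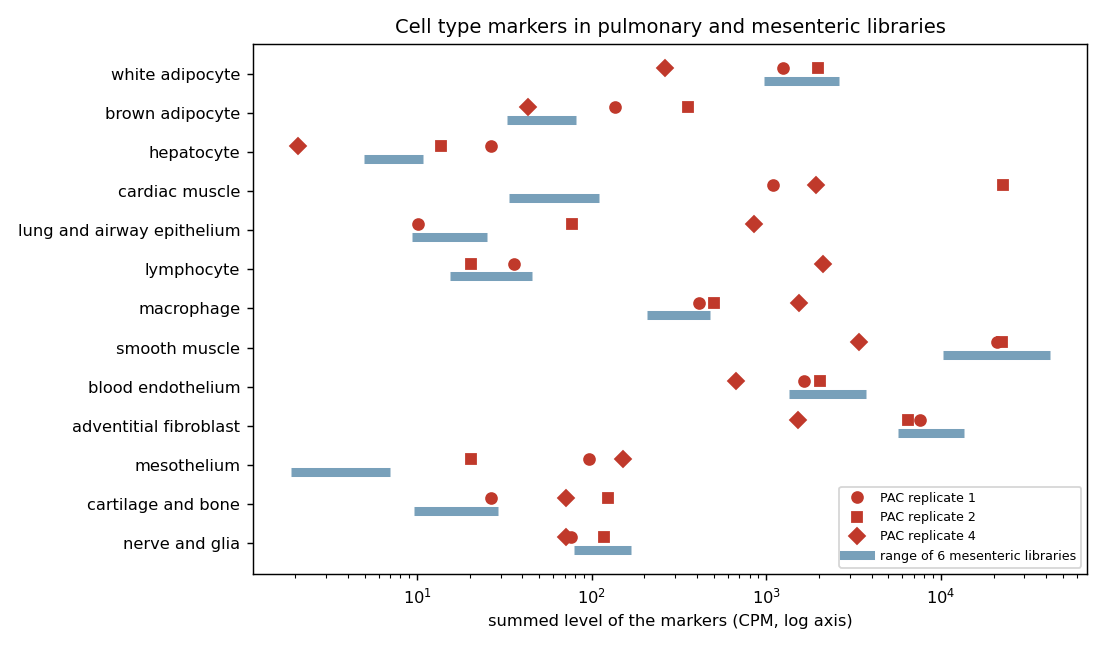
Summed level of the markers of 13 cell types, in CPM on a log axis, with red points for PAC replicates 1, 2 and 4 and a blue bar for the range of the 6 mesenteric libraries. PAC replicate 4 has the lowest white adipocyte sum (261 CPM) and the highest lymphocyte (2108 CPM), epithelial (850 CPM) and mesothelial (151 CPM) sums, and PAC replicate 2 has the highest cardiac muscle sum (22553 CPM).

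Ces1d and Obp3 were each among the 3 genes most like the other. Likeness was taken as Pearson's r of log2 CPM over the 9 libraries among 12708 other genes, a description to which the gap between pulmonary and mesenteric libraries contributes. It was 0.96 between them (Spearman's rho 0.97). Over the 6 mesenteric libraries alone, where that gap plays no part, r was 0.91 (rho 0.89), with Obp3 the 48th gene in order for Ces1d. Obp3 had 1.46, 0.933 and 0.378 counts per count of Ces1d in PAC replicates 1, 2 and 4, against 2.00, 1.57 and 1.24 in MAH and 2.23, 1.79 and 1.58 in MAC. The mesenteric values lay within a 1.24 to 2.23 range, and 2 of the 3 pulmonary libraries lay below it. Cyp2e1 was less like both, with r of 0.74 to Ces1d and 0.81 to Obp3, and so was Gdpd2 (0.88 and 0.77).

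Next to Ces1d by the same measure stood Cacna1d (r = 0.97), a subunit of L-type calcium channels, and Sphkap (0.96), an anchor of protein kinase A. Cacna1d was at 61.7, 45.9 and 13.7 CPM in PAC replicates 1, 2 and 4, against 0.382 to 1.90 CPM in the mesenteric libraries. Obp3 was followed by Gsta4 (0.95), a glutathione transferase, and Zfp862 (0.95). Gsta4 was at 21.4, 19.3 and 11.1 CPM in PAC, against 3.78 to 9.64 CPM in the mesenteric libraries. Gapvd1 and Sprtn (0.94 each) were among the genes most like Cyp2e1. Gdpd2 was most like Six2 (0.98), a homeobox transcription factor, then Tmed4 (0.97) and Adcy7 (0.96). Six2 was at 9.94, 4.01 and 9.36 CPM in PAC, against 0 to 0.463 CPM in the mesenteric libraries. Over the mesenteric libraries alone, the 3 genes most like Ces1d were Ptgr1, Myo5c and Aspa (0.98, 0.98 and 0.97), and those most like Obp3 were Cox18, Septin2 and Brwd1 (0.99, 0.98 and 0.97). Counts of Cyp2e1 and Gdpd2 were too few there for such an order to be read.

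Relatives and partners of the 4 genes were grouped in 9 lists of families and pathways. Between PAC and MAC, 64 genes of these lists other than the 4 were tested, and 39 were higher and 25 lower. By edgeR 0 of the 64 passed an adjusted p of 0.05 (0.014% of all genes did), 10 (15.6%) had an unadjusted p under 0.05 (8.53% of all genes), and DESeq2 called 3, Ptgds, Cyp2j4 and Plin5 (2.85% of all genes). Ptgds (0.0287 CPM on average in MAC) and Plin5 (0.31 CPM) passed the filter on low counts through PAC alone. Such genes could only come out higher in PAC, which bears on these calls and on the count of higher genes. Between PAC and MAH edgeR called 0 of 63 (0.162% of all genes), with 8 (12.7%) at an unadjusted p under 0.05 (10% of all genes). DESeq2 called 2 there, Cyp2ab1 and Cyp2j4, both lower in PAC (3.83% of all genes). Cyp2ab1, at 0.256 CPM on average in PAC, passed the filter through MAH alone and could only come out lower in PAC. Between MAH and MAC edgeR called 0 of 61, with 9 (14.8%) at an unadjusted p under 0.05 (1.99% of all genes) and 0 called by DESeq2 (0.0214%). Their median log2 fold change was 0.13 for PAC over MAC, 0.08 for PAC over MAH and 0.07 for MAH over MAC, beside 0.06, 0.07 and 0.00 for all genes tested. The adjusted p-values given for relatives are Benjamini-Hochberg values of edgeR for PAC over MAC, taken over the whole table.

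Of 12 carboxylesterase symbols in the files, Ces1d and Ces2g were tested. Ces2g was at 2.73 ± 1.48 CPM in PAC and 7.75 ± 4.36 CPM in MAC (SD, n = 3 each), a log2 fold change of −1.51 (adjusted p = 0.599), opposite in sign to Ces1d. Ces1c and Ces1a neighbour Ces1d on chromosome 19 in RefSeq. Ces1c had 0 to 3 counts in every library, and Ces1a had 6, 27 and 1 counts in PAC replicates 1, 2 and 4, against 0 or 1 in each mesenteric library. These 2 genes, named after their values were seen, were thus far below Ces1d in count, although reads of near-identical copies could be split among them.

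In the P450 family 2, 33 symbols were found and 8 were tested between PAC and MAC, 5 higher and 3 lower, with a median log2 fold change of 0.17. Cyp2j4, an arachidonic acid epoxygenase, was at 10.4 ± 3.01 CPM in PAC and 30.9 ± 10.4 CPM in MAC, with no overlap (log2 fold change −1.57, adjusted p = 0.371). Cyp2ab1, not tested between PAC and MAC, was at 0.256 ± 0.116 CPM in PAC and 6.26 ± 3.88 CPM in MAH, with no overlap. Its log2 fold change for PAC over MAH was −4.53 (edgeR adjusted p = 0.127 in that comparison). In MAC it was at 3.30 ± 4.84 CPM. Cyp2s1, a P450 of epithelia, had 24, 23 and 1160 counts in PAC replicates 1, 2 and 4, against 10 to 30 in a mesenteric library (log2 fold change 4.32, adjusted p = 0.551). Its mean thus rested on the library with the highest epithelial markers. Chosen after their values were seen, Cyp2f4 and Cyp2a3, P450s of the airway, had 0, 15 and 424 counts and 0, 3 and 125 counts in PAC, against 0 to 6 and 0 in each mesenteric library. Cyp2c22, also chosen so, had the order of Cyp2e1 within PAC, with 18, 25 and 1 counts in replicates 1, 2 and 4. It had 0 to 3 counts in each mesenteric library, so that MAH replicate 2 did not stand apart. Within PAC, some P450s of family 2 were thus highest in replicate 4, while Cyp2e1 and Cyp2c22 were at 3 counts or fewer there.

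**Figure D4:**
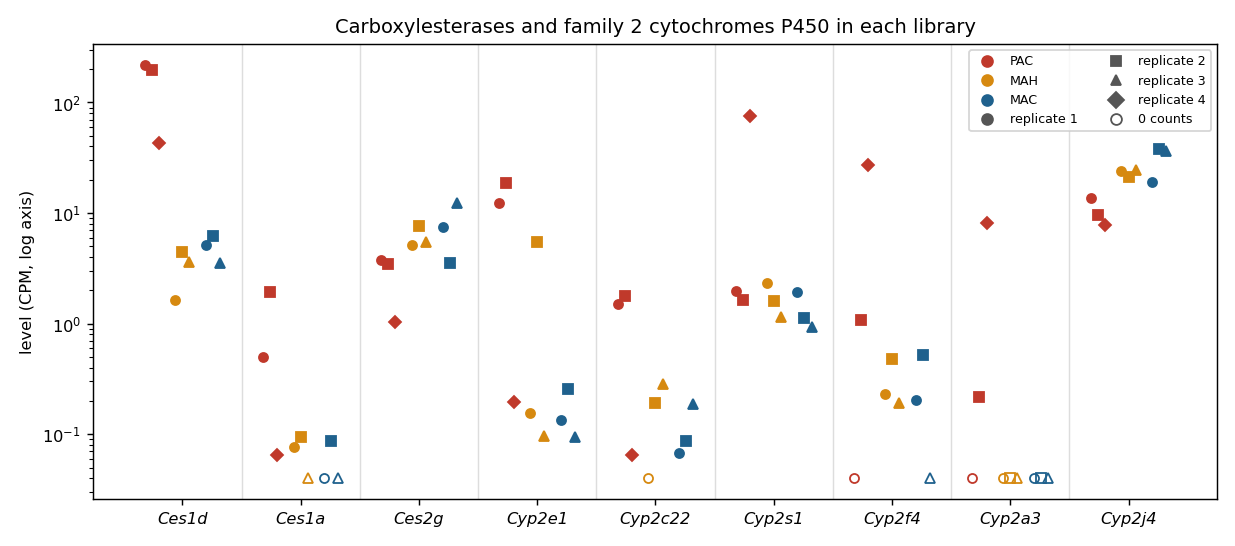
Levels of 3 carboxylesterases and 6 cytochromes P450 of family 2 in each library, in CPM on a log axis, coloured by group with PAC left of MAH and MAC within each gene and shaped by replicate; open symbols at the bottom are libraries with 0 counts. Cyp2e1 and Cyp2c22 are lowest of the PAC libraries in replicate 4 (3 counts and 1 count), whereas Cyp2s1, Cyp2f4 and Cyp2a3 are highest there (1160, 424 and 125 counts).

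Por, the reductase that passes electrons to P450s, was at 47.7 ± 11.5 CPM in PAC and 30.0 ± 1.47 CPM in MAC, with all PAC libraries above all MAC libraries (log2 fold change 0.67, adjusted p = 0.540). Por was at 44.3 ± 5.06 CPM in MAH, where all libraries also lay above MAC, and its log2 fold change for PAC over MAH was 0.11, with overlap. The line of Cyb5a with counts, cytochrome b5, was at 64.3 ± 17.5 CPM in PAC and 94.6 ± 14.8 CPM in MAC (−0.56, adjusted p = 0.609). Of the alcohol and aldehyde enzymes, 4 of 9 were higher and 5 lower. Adh6, an alcohol dehydrogenase, was at 80.2 ± 45.2 CPM in PAC and 35.6 ± 10.6 CPM in MAC (1.16, adjusted p = 0.603), and Aldh1a3, a retinaldehyde dehydrogenase, at 52.2 ± 6.55 CPM in PAC and 103 ± 44.4 CPM in MAC (−0.98, adjusted p = 0.532). Of the liver-type transcription factors, 4 of 5 were higher; Ppara, the fatty acid receptor, was at 4.08 ± 2.11 CPM in PAC and 1.44 ± 1.29 CPM in MAC (1.49, adjusted p = 0.625), and at 3.54 ± 3.02 CPM in MAH (0.19 for PAC over MAH). Cebpb, the fifth, was at 25.4 ± 8.93 CPM in PAC and 69.1 ± 44.3 CPM in MAC (−1.43, adjusted p = 0.537).

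Among the 23 lipocalin symbols, 7 were tested, 5 higher and 2 lower, Obp3 included. Ptgds, the prostaglandin D synthase, had 275, 55 and 12 counts in PAC replicates 1, 2 and 4, the same order as Obp3, against 0 or 1 in each mesenteric library (log2 fold change 7.95, adjusted p = 0.340). It is among the 5 higher genes, and it passed the filter on low counts through PAC alone. Of the 5 glycerophosphodiesterases tested, Gdpd2 aside, the log2 fold changes of Gde1, Gdpd1, Gdpd5 and Gpcpd1 were 0.16, −0.20, 0.28 and −0.42. Gpcpd1, which cleaves glycerophosphocholine, was at 39.1 ± 5.45 CPM in PAC and 52.3 ± 10.3 CPM in MAC (adjusted p = 0.643). In choline metabolism 7 of 11 genes were higher. Chka, choline kinase, was at 21.9 ± 9.81 CPM in PAC and 11.8 ± 1.78 CPM in MAC (0.90, adjusted p = 0.588), and Slc44a1, a choline transporter, at 52.9 ± 10.4 CPM in PAC and 81.0 ± 23.4 CPM in MAC (−0.62, adjusted p = 0.609).

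Lipolysis, in which Ces1d takes part in the mouse, was represented by 15 tested genes, 11 higher and 4 lower, with a median log2 fold change of 0.24. Plin5, a lipid droplet protein of oxidative tissues, was at 1.16, 6.59 and 2.71 CPM in PAC replicates 1, 2 and 4, against 0.202, 0.172 and 0.560 CPM in MAC (3.47, adjusted p = 0.390). All PAC libraries lay above the MAC libraries, but they overlapped with MAH at 1.03 ± 0.404 CPM (1.75 for PAC over MAH), and the highest value was in the library with the highest cardiac markers. Abhd5, the co-activator of triacylglycerol lipase, was at 34.5 ± 6.30 CPM in PAC and 54.0 ± 5.31 CPM in MAC (−0.65, adjusted p = 0.523). Of the 15, Plin5 was the one with a log2 fold change of 3 or more, as were 2.31% of all genes tested. Plin5 passed the filter on low counts through PAC alone.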

How the data were processed

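Per the labels' protocols, libraries were made from poly(A) RNA with random priming and a mark on the second strand. The counts that the authors deposited are whole numbers per gene, 1 table a library, not normalized. The build is rn7 per the submitters' processing notes; for aligner, counting program, annotation and counted strand the sources used here give nothing. The genes and all lists were chosen with earlier results of these data known.

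Levels are CPM with TMM factors over all 9 libraries. Comparisons of 6 libraries each used edgeR's quasi-likelihood test (edgeR 4.0.16, R 4.3.3; TMM, filterByExpr, robust), adjusted by Benjamini-Hochberg over all genes tested, threshold 0.05; the script was tested on simulated counts. Standard errors come from the fold change and its F value. Alternatives included DESeq2 1.42.0, other size factors and filters, all libraries in 1 fit, a replicate block and leaving out each library. Named genes are the 4, the 2 tested members of each family or pathway list with the smallest p between PAC and MAC, and the 3 genes most alike by correlation (1 of them is not reported here); of each marker list the first 2 were to be named, and values are given for those of lists that moved with one of the 4. Likeness used log2 CPM with a prior count of 2. Promoters were read from RefSeq (GRCr8), where all 4 genes had an entry.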

Additional observations from a re-analysis of the deposited data

How the results depend on the processing

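Of 4 genes, 3 kept all PAC libraries above all mesenteric ones under plain totals and under totals without mitochondrially encoded genes, and 3 to 4 with 1 library left out (4 without PAC replicate 4); this check by library and PAC replicate 1 alone (4) were chosen after seeing the data. No result changed direction under any alternative run. Counts of genes called depended on the setting. For MAH over MAC, 0 were called, 3 by DESeq2, and 0 to 0 with a library left out. For PAC over MAC, 2 were called, 408 by DESeq2, 38 with all 9 libraries in 1 fit, 0 with the replicate block, 0 with PAC replicate 1 alone, and 0 to 22 with a library left out (22 without PAC replicate 4). For PAC over MAH, 23 were called, 2 with median-ratio factors, 545 by DESeq2, 2 with no filter, 12 with a stricter filter, 300 with the replicate block, 42 with PAC replicate 1 alone, and 0 to 200 with a library left out (200 without PAC replicate 4). The cause was not tested. Whether the replicate numbers pair the samples is not known here. Deviations from group means correlated at r = 0.20, −0.28 and 0.12 between same-numbered MAH and MAC libraries. Between PAC and MAC, r was 0.17 for replicate 1 and −0.16 for replicate 2. Deviations within 3 libraries depend on each other, so these values cannot decide it. PAC shares only 2 numbers with each mesenteric group.

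With a library left out, log2 fold changes for PAC over MAC were 4.57 to 5.38 for Ces1d, 3.39 to 4.74 for Obp3 and 4.95 to 5.44 for Gdpd2; for PAC over MAH they were 5.21 to 6.00, 4.34 to 5.67 and 4.03 to 5.33, and 1.72 to 6.25 for Cyp2e1. Gdpd2 over MAH was 3.80 with the replicate block, against 4.55. The log2 ratios of PAC over MAC per white adipocyte marker level were 5.20 for Ces1d, 4.15 for Obp3, 6.60 for Gdpd2 and 5.77 for Cyp2e1, and 6.81, 5.11, 8.99 and 6.40 with Adipoq alone; with a library left out they were 5.00 to 5.46, 3.32 to 4.60 and 4.83 to 7.11, and 5.37 to 6.30 for Cyp2e1. Depth limits Gdpd2 and Cyp2e1, most of whose mesenteric libraries hold 4 counts or fewer.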
